A study of Homo sapiens with 6 samples.

Results

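SW620 cells that had grown as a mouse xenograft and were then returned to culture are described here through their satellite repeats, with RNA set against DNA of the same stage. SW620 is an established human line from a lymph node metastasis of a colorectal cancer. The study followed satellite RNA and DNA as these cells moved between dish and animal. All 9566 loci of the deposited satellite matrix were taken, with the RNA library of the culture after the xenograft on 1 side and the DNA library of that culture on the other. The groups used are total RNA of the culture after the xenograft and genomic DNA of that culture, each from cells in 2D culture in serum-containing RPMI1640. The same pair of libraries was also available from the subcutaneous xenograft in a Nu/Nu mouse, an immunodeficient host that supplies its own stroma, and from the 2D culture before xenografting. Each group is 1 library, so 2 of the 6 libraries are the subject and the other 4 serve for comparison. The labels do not say how many animals or cultures stand behind a library, or how long the cells had been back in culture. The identity of the cells could not be checked against marker genes, since the matrix holds satellite loci and no gene rows.

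Satellites are arrays of short units repeated head to tail. Alpha satellite forms the centromeres. The classical satellites HSATII and HSATI and the related (CATTC)n and (GAATG)n repeats lie mainly in the heterochromatin beside the centromeres, as do the gamma satellites. Beta satellite is known from the acrocentric short arms and other pericentromeric regions, and TAR1 from the subtelomeres. Most of this DNA is kept in compact, methylated chromatin with little transcription in ordinary cultured cells, and release of satellite RNA has been described in tumours.

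The RNA library of the culture after the xenograft held 240046 reads, of which 3128 lay at satellite loci, and its DNA library held 3080853 reads, of which 319998 lay there. Satellites were thus 1.30% of RNA reads (Wilson 95% interval 1.26 to 1.35%) and 10.4% of DNA reads (10.35 to 10.42%). Levels are given as RPM, the deposited unit, which scales the reads of a locus by the total of its own library. A single read was worth 4.17 RPM in RNA and 0.325 RPM in DNA, so a locus without an RNA read could still hold up to 12.5 RPM (3 reads), against 0.974 RPM for a locus without a DNA read. The ratio of RNA RPM to DNA RPM is 1 where a locus or family takes equal shares of both libraries. Its 95% interval is an exact conditional binomial interval on the reads, covers counting error only and is too narrow where a read was counted at several loci. With 1 library a side nothing was tested, and how far repeated cultures would vary is unknown. In these bulk libraries, fewer cells with a transcript and less of it per cell cannot be told apart.

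RNA was found at few of the loci that had DNA. In all, 638 of the 9566 loci (6.67%) had at least 1 RNA read and 6261 had at least 1 DNA read. Both were present at 584 loci, and 5677 loci had DNA and no RNA, which is 90.7% of the loci with DNA. A further 54 loci had RNA and no DNA, and 3251 had neither. Of the 638 loci with RNA, 339 had a single read, 99 had 2, and 115 had 6 or more. These 115 loci held 2273 of the RNA reads (72.7%). The 2 libraries differ in depth. Brought by calculation to the 3128 satellite reads of the RNA library, the DNA library would be expected to reach 794 loci, and brought to the 240046 total reads of the RNA library it would be expected to reach 2639. The share of loci with an RNA read was higher where a locus had more DNA reads. It was 1.63% of the 3305 loci with 0 DNA reads, 2.74% of those with 1 to 2, 6.11% of those with 3 to 9, 15.9% of those with 10 to 99 and 37.0% of the 322 loci with 100 or more.

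**Figure D1:**
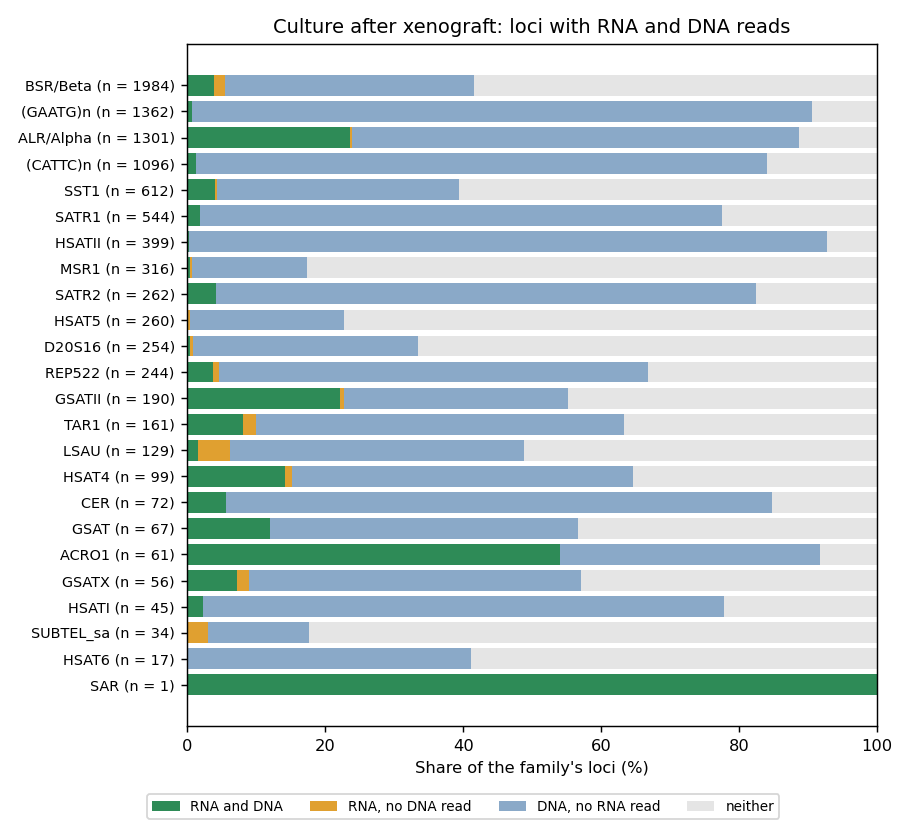
Share of each family's loci (horizontal axis, %; number of loci in brackets) with reads in RNA and DNA, in RNA alone, in DNA alone or in neither library of the culture after the xenograft. ACRO1, ALR/Alpha and GSATII have the widest bars with RNA among families of more than 1 locus, while 369 of the 399 HSATII loci had DNA and no RNA.

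Loci with RNA were longer than those with DNA alone. Their median length was 2617.5 bp with a median of 18 DNA reads, against 536 bp and 4 DNA reads at the 5677 loci with DNA and no RNA. ALR/Alpha was the family with the most loci of RNA, 310 of 1301, with a median length of 6620 bp against 2917 bp for the 845 loci with DNA alone. Of families with at least 10 loci of RNA, ACRO1 and SATR2 went the other way. ACRO1 is a repeat of acrocentric chromosomes: its 33 loci with RNA had a median length of 256 bp and its 23 loci with DNA alone 1306 bp. The 11 SATR2 loci with RNA had a median length of 744 bp and the 205 with DNA alone 1179 bp.

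All satellites together were at 13031 RPM in RNA and 103867 RPM in DNA, a ratio of 0.125 (0.121 to 0.130). The families spread widely around that ratio. Of the 24 families, 6 had intervals wholly above 1, 14 wholly below 1, and 4 (LSAU, MSR1, SUBTEL_sa and HSAT6) held 1. Under TMM scaling the intervals of HSAT4 (1.18, 0.807 to 1.67) and TAR1 (1.18, 0.845 to 1.62) held 1, while those of LSAU (0.460, 0.207 to 0.895) and MSR1 (0.212, 0.0253 to 0.792) lay wholly below it. Set against the ratio of all satellites instead of 1, 10 families lay above it and 7 below. Without ALR/Alpha, which held 69.8% of the satellite DNA reads, the ratio of the remaining loci was 0.226 (0.215 to 0.237). With the DNA library of the culture before the xenograft in the denominator, in which satellites were 0.854% of reads, the ratio of all satellites was 1.53.

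**Figure D2:**
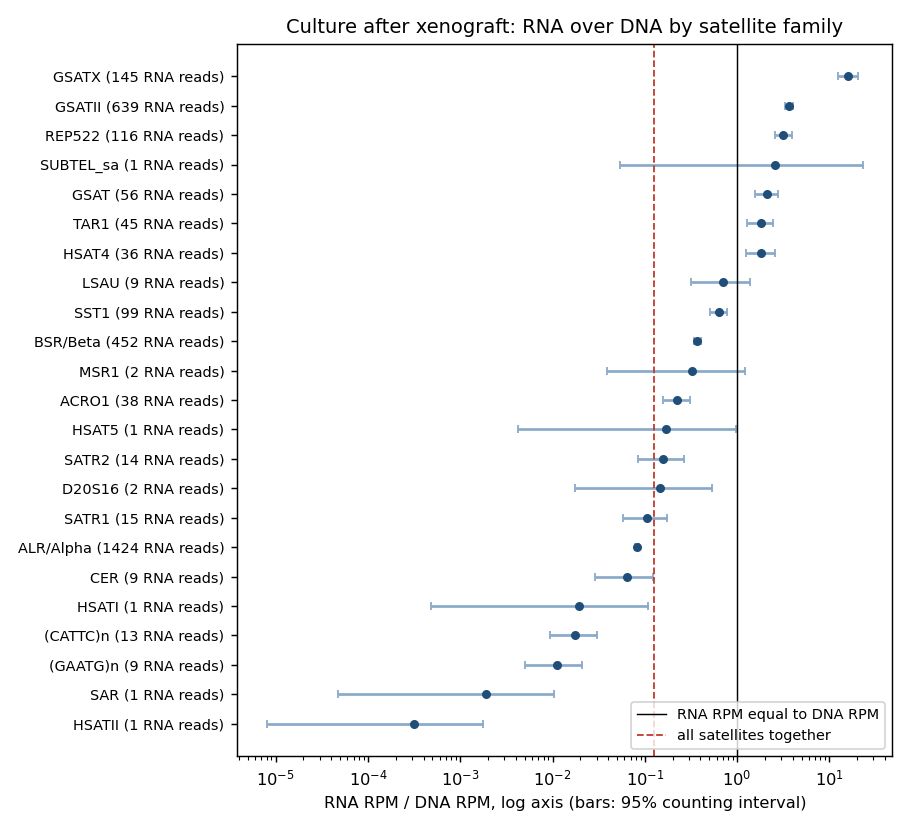
Ratio of RNA RPM to DNA RPM (log axis) for the 23 families with an RNA read, in the culture after the xenograft. Points are ratios, bars 95% counting intervals, the solid line marks 1 and the dashed line all satellites together (0.125). Gamma satellites and REP522 lie to the right of 1, and HSATII, SAR and the pentamer repeats at the far left.

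Among the gamma satellites, GSATII had the most RNA reads. GSATII was at 2662 RPM in RNA (639 reads) and 730 RPM in DNA (2248 reads), a ratio of 3.65 (3.34 to 3.99). It made up 20.4% of the satellite RNA reads and 0.703% of the satellite DNA reads. RNA was spread over 43 of its 190 loci, and its highest locus held 8.76% of its RNA. That locus, at chromosome 2, 132511066 to 132514594 (3529 bp), had 56 RNA reads (233 RPM) and 128 DNA reads (41.5 RPM), a ratio of 5.62 (4.03 to 7.74). The next, at chromosome 9, 68301970 to 68306363, had 50 RNA reads (208 RPM) and 95 DNA reads (30.8 RPM). Each of its 8 loci on chromosome 9 had RNA, 156 reads in all. The 62 GSATII loci with DNA and no RNA were mostly thin in DNA, with a median of 1 read and 9.03% of the family's DNA reads. The fullest of them, at chromosome 14, 19744675 to 19745311 (hg19), had 0 RNA and 57 DNA reads. By length, the ratio was 5.38 (4.65 to 6.21) at the 49 loci of 1000 to under 2000 bp and 3.14 (2.78 to 3.53) at the 23 loci of 2000 to under 10000 bp, while the 27 loci under 200 bp and the 43 of 200 to under 500 bp had 1 RNA read each.

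GSATX, the X-type gamma satellite, had the highest ratio of all families but few loci behind it. It was at 604 RPM in RNA (145 reads) and 37.7 RPM in DNA (116 reads), a ratio of 16.04 (12.5 to 20.7). RNA was seen at 5 of its 56 loci. A pair on chromosome Y, at 19677922 to 19679160 and 20500617 to 20501856, each had 65 RNA reads (271 RPM) and 3 DNA reads (0.974 RPM). These 2 loci had equal reads in all 6 libraries, so the same reads may stand at both. Counted once, they leave the family at 9.09 (6.74 to 12.2). GSAT was at 233 RPM in RNA (56 reads) and 112 RPM in DNA (344 reads), a ratio of 2.09 (1.55 to 2.78), but 41 of its 56 RNA reads lay at the 15002-bp locus at chromosome 8, 47109801 to 47124802. Without that locus the GSAT ratio was 0.833 (0.459 to 1.404).

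The classical and pentamer satellites had DNA in abundance and nearly no RNA. HSATII was at 4.17 RPM in RNA (1 read, Poisson 95% interval 0.105 to 23.2) and 13143 RPM in DNA (40491 reads, 13015 to 13271). Its RNA was thus 3155-fold lower than its DNA (566 to 124614). The HSATII share of satellite reads was 0.0320% in RNA and 12.7% in DNA. At the ratio of all satellites together its DNA would have gone with 396 RNA reads. The single read lay at chromosome 16, 46385804 to 46387773, a locus of 1970 bp with 671 DNA reads (218 RPM). The other 369 HSATII loci with DNA had 0 RNA reads and 39820 DNA reads between them, and 278 of these loci had 10 or more DNA reads. The 369 are 99.7% of the HSATII loci with DNA, against 90.7% over all satellites.

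(GAATG)n and (CATTC)n, simple repeats that overlap HSATII in sequence, were low in RNA as well. (GAATG)n had 9 RNA reads at 9 loci and 10410 DNA reads (37.5 RPM in RNA, 3379 RPM in DNA), a ratio of 0.0111 (0.00507 to 0.0211). (CATTC)n had 13 RNA reads at 13 loci and 9454 DNA reads (54.2 and 3069 RPM), a ratio of 0.0176 (0.00939 to 0.0302). No locus of either family had more than 1 RNA read. They had 1224 and 908 loci with DNA and no RNA, the highest counts of any family. These were 99.3% and 98.6% of their loci with DNA, against 90.7% over all satellites. The median of these loci was 5 and 6 DNA reads, where a missing RNA read says little. HSATI, the AT-rich classical satellite, had 1 RNA read and 665 DNA reads, a ratio of 0.0193 (0.000488 to 0.108). SAR, a family of 1 locus in the matrix, had 1 RNA read and 6811 DNA reads (4.17 and 2211 RPM), a ratio of 0.00188 (4.77e-05 to 0.0105).

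ALR/Alpha, the centromeric family, supplied the most RNA reads of any family and still lay below the ratio of all satellites. It was at 5932 RPM in RNA (1424 reads) and 72474 RPM in DNA (223281 reads), a ratio of 0.0819 (0.0776 to 0.0862). It made up 45.5% of the satellite RNA reads and 69.8% of the satellite DNA reads. The alpha loci with the most RNA lay at chromosome 12, 38118813 to 38127781, with 85 RNA reads (354 RPM) and 432 DNA reads (140 RPM), and at chromosome 17, 21773058 to 21777641, with 63 RNA reads (262 RPM) and 59 DNA reads (19.2 RPM). Alpha loci at chromosome 12, 38292356 to 38301939, chromosome 17, 22160887 to 22167531, and chromosome 11, 50596753 to 50607172, followed with 54, 47 and 40 RNA reads (225, 196 and 167 RPM) and 94, 193 and 237 DNA reads (30.5, 62.6 and 76.9 RPM). All 5 had more RNA than DNA in RPM. The loci with the most DNA were others. The array on the unplaced contig Un_gl000226, 2 to 15004, had 0 RNA reads and 22336 DNA reads (7250 RPM). With RNA set at 3 reads it was 580-fold lower in RNA (lower 95% limit 472).

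Alpha loci were also grouped by DNA density, the DNA RPM per kb of locus. Classes of density were taken from the xenograft DNA library and not from the denominator of the ratio, and were added after the values were seen. The 2 DNA libraries were close at the alpha locus with the most DNA (21089 and 22336 reads). The classes thus still sort loci by DNA, and a fall of the ratio follows wherever RNA per kb stays level. The 131 loci without xenograft DNA, at a ratio of 0.755 (0.200 to 2.02) on 4 RNA reads, were left out. From the class above 0 to 2 RPM per kb (724 loci) to the class above 50 (16 loci), DNA of the culture after the xenograft was at 1.10, 3.74, 6.71, 21.2 and 157 RPM per kb. RNA per kb did not follow: it was at 0.564, 1.11, 1.001, 1.098 and 0.432 RPM per kb in the same classes. The ratio of RNA to DNA was 0.511 (0.467 to 0.559), 0.298 (0.272 to 0.326), 0.149 (0.129 to 0.171), 0.0519 (0.0447 to 0.0599) and 0.00276 (0.00182 to 0.00402). The last class holds 27 RNA reads, of which 15 lay at chromosome X, 58544096 to 58582011, a locus with 17484 DNA reads. Without it the class was at 0.225 RPM of RNA per kb and a ratio of 0.00143 (0.000737 to 0.00249). The first 4 classes hold 724, 284, 94 and 52 loci. In the fourth, 85 of the 187 RNA reads (45.5%) lay at the alpha locus with the most RNA, on chromosome 12, and without it the class was at 0.607 RPM of RNA per kb and a ratio of 0.0286 (0.0233 to 0.0347).

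**Figure D3:**
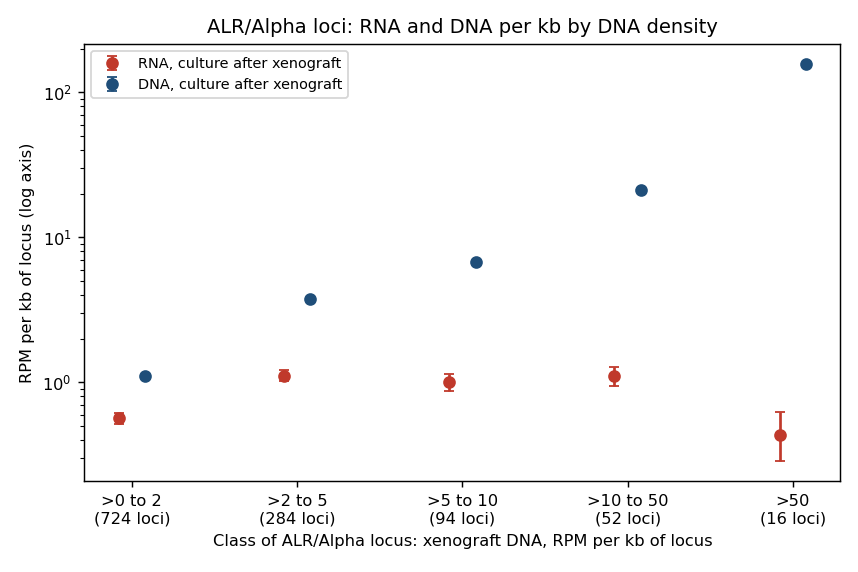
RNA and DNA of the culture after the xenograft in RPM per kb of locus (log axis) for ALR/Alpha loci in 5 classes of DNA density, taken from the xenograft DNA library. Points are sums over the class, bars 95% Poisson intervals. DNA climbs from 1.10 to 157 RPM per kb while RNA stays between 0.432 and 1.11.

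Length alone showed the same split less sharply. Alpha loci of 10000 bp and over had a ratio of 0.0287 (0.0259 to 0.0317), against 0.261 (0.245 to 0.278) for those of 2000 to under 10000 bp. Both length and density went with the ratio. Among alpha loci at or below 10 RPM per kb the ratio was 0.141 (0.126 to 0.157) at 10000 bp and over and 0.536 (0.4999 to 0.573) below that length. Above 10 RPM per kb these values were 0.00451 (0.00335 to 0.00595) and 0.0712 (0.0607 to 0.0830). That same locus of chromosome 12 held 51.8% of the RNA reads behind 0.0712, and without it the ratio was 0.0348 (0.0276 to 0.0434). The 78 alpha loci under 200 bp were at 3.74 (1.91 to 6.90), which rests on 14 RNA reads at 2 loci.

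BSR/Beta, the beta satellite, lay between these extremes. It was at 1883 RPM in RNA (452 reads) and 5077 RPM in DNA (15640 reads), a ratio of 0.371 (0.337 to 0.407), and 107 of its 1984 loci had RNA. The locus with the most RNA of the whole matrix belonged to it, at chromosome 19, 24246058 to 24246714 (657 bp), with 93 RNA reads (387 RPM) and 57 DNA reads (18.5 RPM), a ratio of 20.9 (14.9 to 29.7). Beta loci of 200 to under 500 bp had a ratio of 2.54 (1.97 to 3.24) and those of 500 to under 1000 bp 2.06 (1.77 to 2.38), whereas those of 2000 to under 10000 bp had 54 RNA and 10024 DNA reads, a ratio of 0.0691. Much of the RNA of the shorter classes lay at single loci, with 32 of 80 reads and 93 of 208 at the fullest of each. Without these the ratios were 1.71 (1.24 to 2.31) and 1.19 (0.975 to 1.44). By chromosome of the row names, most beta satellite RNA reads stood at rows of chromosome 19 (246 RNA and 2636 DNA reads) and chromosome Y (169 RNA and 2663 DNA reads). Reads of near-identical loci could not be told apart, so this does not show which chromosome the RNA came from. LSAU, a repeat linked to beta satellite arrays, had 9 RNA and 164 DNA reads, a ratio of 0.704 (0.316 to 1.37), or 0.411 (0.132 to 0.981) with equal loci counted once.

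ACRO1 was thinly but broadly present in RNA. It was at 158 RPM in RNA (38 reads) and 707 RPM in DNA (2177 reads), a ratio of 0.224 (0.158 to 0.308). RNA stood at 33 of its 61 loci (54.1%) with at most 2 reads at any.

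Of the repeats taken as subtelomeric, REP522 and TAR1 had more RNA than DNA in RPM as summed over each family. REP522 was at 483 RPM in RNA (116 reads) and 152 RPM in DNA (469 reads), a ratio of 3.17 (2.57 to 3.90). RNA stood at 11 of its 244 loci, and 4 of these held 106 of the 116 reads. Of its RNA, 56 reads (233 RPM) lay at chromosome 22, 22477210 to 22479804, where DNA had 3 reads (0.974 RPM). Without that locus the REP522 ratio was 1.65 (1.24 to 2.17). TAR1 was at 187 RPM in RNA (45 reads) and 104 RPM in DNA (319 reads), a ratio of 1.81 (1.29 to 2.48), or 1.32 (0.891 to 1.91) without the locus with the most RNA. SUBTEL_sa had 1 RNA read and 5 DNA reads, which sets no direction (0.0543 to 22.9).

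SST1, a macrosatellite, was at 412 RPM in RNA (99 reads) and 651 RPM in DNA (2005 reads), a ratio of 0.634 (0.513 to 0.776). A pair of 382-bp loci on chromosome Y with 33 RNA reads each and equal reads in all libraries held much of this, and with equal loci of the family counted once the ratio was 0.479 (0.364 to 0.620). HSAT4 was at 1.80 (1.24 to 2.57) with 36 RNA and 256 DNA reads. SATR1 and SATR2, with 15 and 14 RNA reads, were at 0.105 (0.0587 to 0.174) and 0.156 (0.0850 to 0.263). CER was at 0.0638 (0.0291 to 0.121), and 6 of its 9 RNA reads lay at a single locus of 59964 bp, without which it was at 0.0235 (0.00485 to 0.0689). D20S16, MSR1 and HSAT5 had 2, 2 and 1 RNA reads, at ratios of 0.147 (0.0176 to 0.538), 0.325 (0.0387 to 1.21) and 0.169 (0.00422 to 0.9697). HSAT6 had 0 RNA and 18 DNA reads, and its limit of 12.5 RPM in RNA lies above its 5.84 RPM of DNA.

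Locus by locus, the difference of log2(RPM + 5) between RNA and DNA was taken for each locus that reached 20 RPM in either library, and counted from 2-fold upward. The added 5 RPM shrinks differences where both levels are low. Of 517 such loci, 74 (14.3%) were at least 2-fold above their DNA in RNA and 385 (74.5%) at least 2-fold below it. Scaling each library to its satellite total, which shifts every log2 ratio by 2.99, gave 142 above and 317 below. The count above rests on the choice of loci: 69 of the 517 reached 20 RPM through RNA alone, and among the 448 with 20 RPM of DNA, 19 were above and 385 below. The families are therefore given among the loci with 20 RPM of DNA, where 4.24% were above and 85.9% below. This minimum still favours calls below, since a locus at 20 RPM of DNA with 0 or 1 RNA read must fall there. Of 12 GSATII loci, 8 were above and 1 below, and another 16 GSATII loci reached 20 RPM through RNA alone. The 97 HSATII, 18 ACRO1 and 7 (CATTC)n loci were each below. Of 256 alpha loci, 9 were above and 217 below, and of 44 beta loci 1 was above and 35 below.

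**Figure D4:**
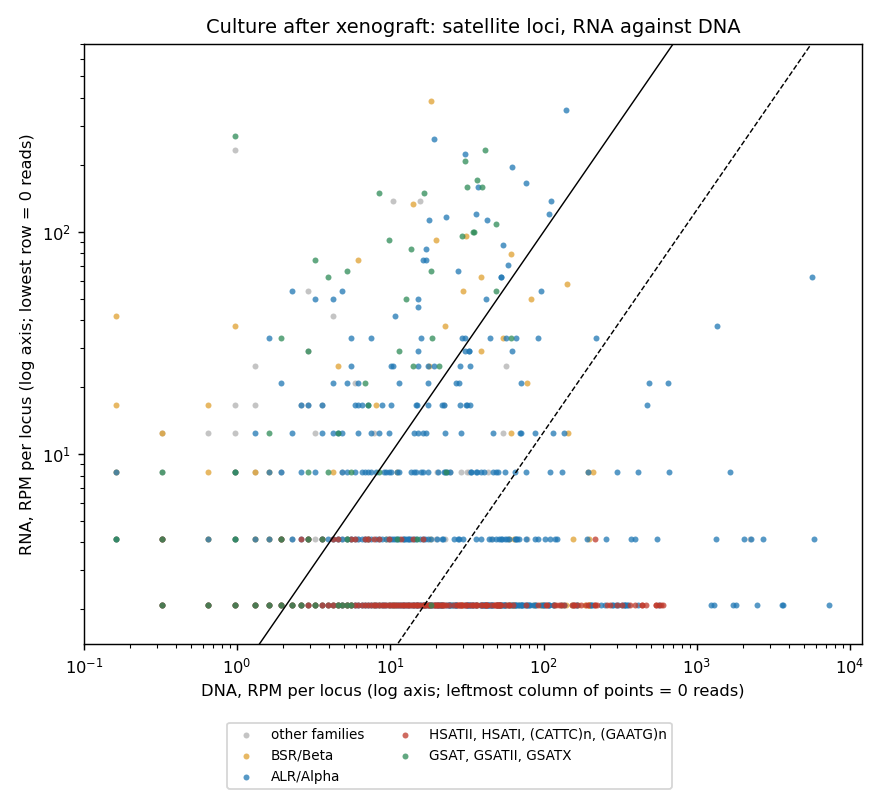
RNA RPM against DNA RPM of each satellite locus in the culture after the xenograft (log axes; loci with 0 reads are drawn at the lower or left edge). The solid line marks equal RPM and the dashed line the ratio of all satellites, 0.125. Of the 12 GSATII loci with 20 RPM of DNA, 8 lie at least 2-fold above equal RPM on the log2(RPM + 5) scale, the HSATII group (red) sits on the lowest rows, and the alpha loci with over 1000 RPM of DNA have at most 62.5 RPM of RNA.

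The 10 highest log2 ratios ran from 3.21 to 5.53. They belonged to the pair of GSATX loci on chromosome Y, 3 GSATII, 2 REP522, 2 BSR/Beta and 1 ALR/Alpha locus. The 3 GSATII loci were those at chromosome 22, 16095854 to 16096899, and Un_gl000244, 16996 to 18044, each with 36 RNA reads (150 RPM) and 26 DNA reads (8.44 RPM), and the one at Un_gl000211, 45222 to 48097, with 18 RNA and 10 DNA reads. The first 2 had equal reads in this culture and in RNA of the culture before (1 each). Their reads were close in the xenograft (32 and 33 in RNA, 23 and 21 in DNA) and in DNA of the culture before (51 and 55). The same reads may thus stand at both, and counting equal loci once does not catch this pair. The 10 lowest log2 ratios, −10.50 to −7.95, were all alpha satellite, the family of 287 of the 517 loci. At 0 or 1 RNA read the value is set almost wholly by the DNA level. As a family, HSATII had a lower ratio (0.000317) than alpha satellite (0.0819). Of the 10 lowest, 7 had 0 RNA reads and 3 had 1. These 3 lay at chromosome X, 61682015 to 61736573 (17974 DNA reads), chromosome 1, 121480151 to 121485429 (8308), and chromosome 19, 27731785 to 27741731 (6987).

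The absence of RNA reads can be read only where DNA is high. At 118 loci the DNA RPM times 0.125 exceeded the 12.5 RPM that 0 RNA reads allow, which took 312 DNA reads or more. Of these 118 loci, 78 (66.1%) had no RNA read: 37 of 69 alpha loci, 31 of 32 HSATII loci and 10 of 16 beta loci. The 78 loci held 38.8% of the satellite DNA reads. In the xenograft RNA library all 78 had reads, 28761 in all. In the RNA library of the culture before the xenograft 19 had reads, 49 in all. Of all 9566 loci, 46.0% had a read in the first of these libraries and 4.76% in the second. Depth differs too, at 1077925 and 157326 RNA reads, against 240046 in the culture after. The 78 loci were picked for high DNA and 0 RNA reads here. Other loci of equally high DNA were not looked up, so a change between stages was not tested. After Un_gl000226, the 2 next in DNA were the alpha arrays at chromosome 8, 43816164 to 43838878 (11280 DNA reads), and 46838891 to 46863921 (11120 DNA reads). With RNA set at 3 reads they were 293-fold and 289-fold lower in RNA (lower 95% limits 238 and 235). Alpha arrays at chromosome 7, 61967160 to 61985590, and chromosome 2, 92315720 to 92326171, came next with 7636 and 5588 DNA reads. Those at chromosome 17, 22241552 to 22263006, chromosome 11, 51567243 to 51594205, and chromosome 10, 42527022 to 42546685, had 5319, 3974 and 3800. The fullest HSATII loci without RNA were at chromosome 16, 46394533 to 46398167 (1853 DNA reads), and chromosome 10, 42598547 to 42601361 (1791 DNA reads). With RNA set at 3 reads they were 48.1-fold and 46.5-fold lower in RNA (lower 95% limits 39.1 and 37.8). Among the 40 loci of the 118 with RNA, 5 exceeded the ratio of all satellites, 4 of them alpha loci and 1 a beta locus.

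Over all families, the ratio changed with length mainly at the ends. It was 0.0626 (0.0422 to 0.0895) for loci under 200 bp and 0.210, 0.222, 0.330 and 0.234 for the classes that start at 200, 500, 1000 and 2000 bp. For loci of 10000 bp and over it was 0.0324 (0.0295 to 0.0356). Without ALR/Alpha the 27 longest loci were at 0.210 (0.160 to 0.271), while loci under 200 bp were at 0.0337 (0.0192 to 0.0547). The value of the 27 longest rests largely on the GSAT locus of chromosome 8. It held 41 of their 60 RNA reads (68.3%), and the ratio without it was not computed.

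By chromosome of the assembly, RNA over DNA ran from 0.00910 (0.00539 to 0.0144) on chromosome 10, with 18 RNA and 25396 DNA reads, to 1.15 (0.957 to 1.37) on chromosome 22, with 138 and 1543. Chromosome Y had the most RNA reads, 437, with 9437 DNA reads, a ratio of 0.594 (0.539 to 0.654). With equal loci counted once it had 314 RNA reads, fewer than the 351 of chromosome 19. Over all sequences of the assembly, the contig Un_gl000244 was highest, at 10.1 (7.38 to 13.7) with 77 RNA and 98 DNA reads, all of GSATII. GSATII of chromosome 22 had 76 RNA and 99 DNA reads, so the same reads may stand behind both of these high ratios. Un_gl000226 had 0 RNA reads. Chromosomes differ in the families they carry. Within ALR/Alpha alone, chromosome 12 was at 0.360 (0.314 to 0.411) and chromosome 16 at 0.323 (0.278 to 0.374), against 0.0410 (0.0342 to 0.0487) on chromosome X, 0.0113 (0.00518 to 0.0215) on chromosome 1 and 0.00184 (0.000223 to 0.00666) on chromosome 2. Without ALR/Alpha, chromosome 16 was at 0.00772 (0.00399 to 0.0135) and chromosome 9 at 2.45 (2.12 to 2.82). Reads of near-identical loci on several chromosomes could not be told apart, so these ratios describe rows of the matrix and not transcripts of a chromosome.

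The 54 loci with RNA and no DNA read were mostly single reads. They held 70 RNA reads, and 48 had 1. Of the 54, 31 were BSR/Beta loci and 27 lay on chromosome Y, and 38 had DNA in the xenograft or in the culture before it. Both shares were also large among the 3251 loci with neither RNA nor DNA. Of these, 1159 were BSR/Beta loci and 1444 lay on chromosome Y. The highest of the 54, a 316-bp beta locus at chromosome Y, 23164256 to 23164571, had 10 RNA reads (41.7 RPM). This is 42.8-fold above the level of 3 DNA reads (lower 95% limit of RNA over DNA 28.8). It had 0 DNA reads in all 3 DNA libraries and RNA in all 3 RNA libraries (12.7, 10.2 and 41.7 RPM before, during and after the xenograft).

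Ratios were also set against those of the other stages. In the xenograft, RNA over DNA was 0.529 (0.516 to 0.542) for HSATII, 0.790 (0.783 to 0.798) for ALR/Alpha and 0.567 (0.542 to 0.594) for (CATTC)n. The ratio in the culture after was 0.000600 times that of the xenograft for HSATII (8.44e-05 to 0.00426), 0.104 times for ALR/Alpha (0.0982 to 0.109) and 0.0311 times for (CATTC)n (0.0180 to 0.0537). All satellites together were at 0.738 in the xenograft and 0.125 in the culture after, or 0.170 times (0.164 to 0.176). HSATII, ALR/Alpha and (CATTC)n lay below that factor, and BSR/Beta (0.526 times, 0.476 to 0.581) and ACRO1 (0.312 times, 0.225 to 0.434) above it. Of 23 families with a value, 12 had a lower ratio than in the xenograft and 5 a higher one, beyond counting error. The 5 were GSATX (2.39 times, 1.72 to 3.34), GSATII (2.28, 2.03 to 2.56), REP522 (2.09, 1.64 to 2.67), HSAT4 (2.07, 1.36 to 3.16) and GSAT (1.67, 1.19 to 2.34). Against the culture before, 3 of 20 families had a higher ratio and 13 a lower one, with all satellites together at 0.213 times (0.196 to 0.230). GSATX was at 10.4 times (5.07 to 21.2), GSATII at 6.52 times (4.83 to 8.79) and TAR1 at 4.95 times (3.16 to 7.77). RNA of GSATX was at 604 RPM after and 57.2 RPM before, and RNA of GSATII at 2662 RPM after and 305 RPM before. TAR1 was at 187 RPM of RNA after and 235 RPM before, and at 104 RPM of DNA after and 643 RPM before, so its higher ratio came with lower DNA and not with higher RNA. These intervals come from the 4 read counts on a log scale and cover counting error only. The DNA library of the culture before differs from the others in its satellite share (0.854%, against 9.88% in the xenograft and 10.4% after). With that DNA library under the RNA of the culture after, GSATX was at 16.3 (12.97 to 20.6), GSATII at 4.88 (4.47 to 5.33) and TAR1 at 0.291 (0.212 to 0.391).

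**Figure D5:**
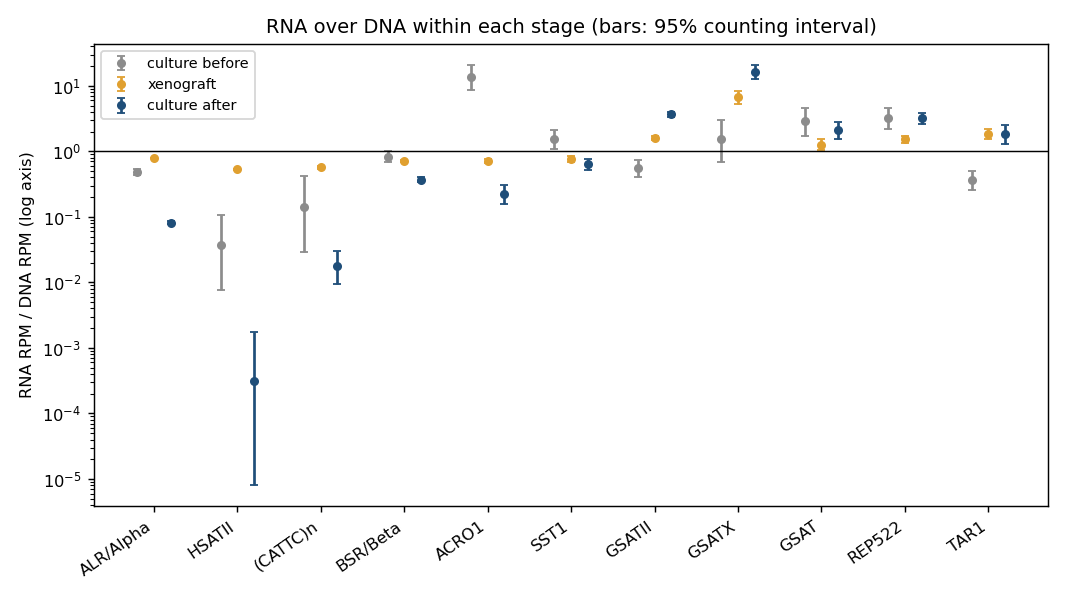
RNA RPM over DNA RPM (log axis) within each of the 3 stages for 11 families, with 95% counting intervals; stages run from the culture before to the culture after. For HSATII, (CATTC)n, ALR/Alpha, BSR/Beta, ACRO1 and SST1 the culture after lies lowest, and for GSATII and GSATX highest. For SST1 its interval overlaps that of the xenograft.

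RNA of the other stages was looked up at the loci without RNA in this culture. Of the 5677 loci with DNA and no RNA, 3521 (62.02%) had RNA in the xenograft, whose RNA library held 1077925 reads. Brought by calculation to the 240046 reads of the culture after, the xenograft library would be expected to show RNA at 1786 of them (31.5%). Over all 9566 loci the share was 45.996% (23.9% at that depth), and over the 638 loci with RNA 85.3% (65.4%). In the culture before, with 157326 RNA reads, 210 of them (3.70%) had RNA, against 4.76% of all loci and 33.5% of the 638. The 638 loci with RNA held 39.1% of the DNA reads of the culture after, but 64.1% of the satellite RNA reads of the culture before and 41.2% of those of the xenograft.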

How the data were processed

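The authors deposited 1 matrix in RPM, with 9566 satellite loci of 24 families in rows and 6 libraries in columns. Family, chromosome, start, end and strand come from the row names, and coordinates are in hg19, the build named in the submitters' processing notes. Per the labels' protocols, RNA was extracted with TRIzol and sequenced under a Helicos digital gene expression protocol, and DNA was extracted with a DNeasy kit and sequenced under the Helicos DNA protocol. The aligner, the treatment of reads with several matches, of strand and of mouse reads, and the reads that make up a total were not given in the sources used here.

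Whole reads were recovered: 100% of the values above 0 came out whole within 0.01 reads when divided by the lowest value of their column, and the total follows from that value. Of 1241 loci with 50 or more reads over the 6 libraries, 62 (5.00%) shared all 6 read numbers with a locus of the same family; at 5 or more reads it was 1300 of 4821 (27.0%), where equality by chance is easier. Sums were computed over loci as deposited. Loci to be named were each family, the 12 with the most RNA, the 10 with the most DNA and no RNA, the 10 highest and lowest ratios, and the 5 highest with RNA and no DNA; loci and families are given as examples of these, and the GSATII locus of chromosome 14, the alpha locus at 58544096 on chromosome X and the SST1 pair were chosen after their values were seen. The members, families and lists were chosen with earlier results of these data known. The matrix holds no gene rows, so no marker list was measured; gene annotation and sequence of hg19 were not used here. Alternatives were scaling by the satellite total, by edgeR (4.0.16) TMM factors and by DESeq2 (1.42.0) size factors, other minimums and pseudocounts, equal loci counted once, other DNA libraries, alpha and beta classes without their fullest locus (both chosen after seeing the data), and a count test. Ratios and size rule were also run on simulated data, with independent reads and equal shares of RNA and DNA at most loci. That setting differs from these data, so the run lends no support to the values here. Python 3.11.15, NumPy 2.4.6, pandas 2.3.3, SciPy 1.17.1, statsmodels 0.14.6, R 4.3.3 and matplotlib 3.10.9 were used.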

Additional observations from a re-analysis of the deposited data

Results flagged for a closer look

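For 6 families the ratio of RNA RPM to DNA RPM lay on opposite sides of 1, beyond counting error, in the culture after the xenograft and in the culture before it. With 1 library a group the difference itself was not tested against replicates. ACRO1 was at 0.224 after and 13.4 before, D20S16 at 0.147 after and 9.69 before, SATR2 at 0.156 after and 3.11 before, and SST1 at 0.634 after and 1.52 before. GSATII was at 3.65 after and 0.560 before, and TAR1 at 1.81 after and 0.366 before. D20S16 rests on 2 RNA reads after and 7 before. Satellites were 10.4% of DNA reads after and 0.854% before. With the DNA library of the culture before under the RNA of the culture after, 5 of the 6 crossed 1 and GSATII (4.88) did not. The intervals of D20S16 and SATR2 held 1 in that setting.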

How the results depend on the processing

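No paired analysis was possible because each group is 1 library. Loci with RNA numbered 638, or 299 and 200 at a minimum of 2 and 3 RNA reads; loci with DNA and no RNA numbered 5677, or 3619 and 1699 at a minimum of 3 and 10 DNA reads and 2622 with the DNA library of the culture before. The 74 loci above and 385 below became 48 and 205 at a minimum of 50 RPM and 121 and 1265 with none; the loci above became 19 with the minimum on DNA and 142 scaled to the satellite total, and those below 36 with the DNA library of the culture before (100 above). A count test of the reads, a comparison of 2 libraries and not of conditions, called 74 above and 375 below. The ratio of all satellites, 0.125, was 0.226 without ALR/Alpha, 0.121 with equal loci counted once, 0.132 with xenograft DNA and turned to 1.53 with DNA of the culture before. That DNA library also turned ACRO1 (10.4), ALR/Alpha (1.21), BSR/Beta (2.20), D20S16 (1.81), HSAT5 (2.59), HSATI (1.21), SATR2 (1.36), SST1 (2.46) and TAR1 (0.291), and took LSAU to 2.30 (1.01 to 4.62). Of the families turned by it, D20S16, HSAT5, HSATI and SATR2 had intervals that held 1, so no direction was set for them. Scaling to the satellite total turned ACRO1 (1.79), BSR/Beta (2.96), D20S16 (1.17), HSAT5 (1.35), SATR2 (1.24) and SST1 (5.05) and took LSAU to 5.61 (2.52 to 10.9) and MSR1 to 2.59 (0.308 to 9.67), whose intervals held 1 before, and GSAT turned to 0.833 without its top locus. Under that scaling the intervals of D20S16, HSAT5 and SATR2 held 1, and so did that of GSAT without its top locus. TMM and size factors shifted every log2 ratio by −0.61 and −0.51 and turned no family. The cause of these moves was not tested, apart from fewer loci passing a stricter minimum. Depth limits RNA most: 12.5 RPM is the least that 0 reads exclude.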

Other observations

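The 12 fullest loci held 22.9% of the satellite RNA reads and 39.7% of the satellite DNA reads. In RNA, 326 loci made up 90% of the reads, and in DNA 943. These counts stand on 3128 RNA and 319998 DNA reads and were not brought to equal depth. RNA after the xenograft and RNA before it shared 214 loci, which is 33.5% of the 638 loci after and 47.03% of the 455 loci before.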
